A study of Mus musculus with 6 samples.

Results

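The 10 genes described here are transcription factors of retinal ganglion cell fate and identity: Pou4f1, Pou4f2, Pou4f3, Isl1, Isl2, Atoh7, Eomes, Tbr1, Satb1 and Ebf1. They come from a list of names chosen with earlier results of these data known. All 10 were found among the 55335 genes of the count table, and all 10 passed the filter on low counts. The samples were retinas of C57BL/6 mice aged 10 weeks, labelled wild type, from which RNA was recovered by an anti-HA pull-down and labelled as ganglion cell RNA. The labels do not say which protein carried the HA tag or what drove its expression. There were 3 naive libraries and 3 libraries from SOHU eyes, a model in which silicone oil injected into the anterior chamber blocks the pupil and raises eye pressure, harvested 1 week after injection. The labels do not say whether libraries came from separate animals or from pools, so a p-value here reflects how much these libraries varied, and that variation may be technical.

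Retinal ganglion cells are the output neurons of the retina. During development the basic helix-loop-helix factor Atoh7 makes progenitors competent to become ganglion cells. The POU4 homeodomain factor Pou4f2 and the LIM homeodomain factor Isl1 then act together on the ganglion cell programme, and Pou4f1, Pou4f3 and Isl2 mark differentiated cells. Eomes, Tbr1, Satb1 and Ebf1 belong to particular ganglion cell types. Several of these genes are not exclusive to ganglion cells: Isl1 is also made by ON bipolar cells and starburst amacrine cells.

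Library totals ran from 21691354 to 26824919 counts. On a first principal component with 51.9% of the variance, the groups separated, and SOHU replicate 3 (9.88) stood nearest to the naive libraries (-63.3 to -23.6). At an adjusted p under 0.05, 1049 of 17687 tested genes (5.93%) were lower in SOHU and 1418 (8.02%) were higher. Ganglion cell markers that are not transcription factors, such as Rbpms, Sncg and Nefl, made up 0.500% to 0.80% of naive counts and 0.262% to 0.369% of SOHU counts, and 13 of the 14 fell. Markers of Müller glia and astrocytes made up 1.13% to 1.57% of naive counts and 2.39% to 4.46% of SOHU counts, and 7 of 9 rose. Amacrine and horizontal cell markers went from a range of 0.187% to 0.217% to one of 0.124% to 0.156%. Of these 8 markers 2 fell in edgeR, 5 in DESeq2 and in limma-voom, 6 without SOHU replicate 3 and 0 without naive replicate 2 or SOHU replicate 2. In 6 of the 8 every SOHU library lay below every naive one, as in 19.7% of all tested genes. The median log2 fold change of the 8 was -0.87 (0.13 relative to ganglion cell markers). Leukocyte markers rose in 3 of 7 cases, with a median of 1.77 (Tyrobp 3.06, adjusted p = 0.021), at no more than 0.0044% of counts in any library, and in 1 without SOHU replicate 1 and 0 without SOHU replicate 2. Of 4 tested vascular markers 1 rose, Pdgfrb, with a median of 1.08. The part of these cells in the factor values was not tested. The naive pull-downs also held RNA of cells other than ganglion cells: the glial Apoe stood at 5086 ± 765 CPM, beside 196 ± 46.8 CPM of the ganglion cell marker Rbpms (SD, n = 3 each; CPM are counts scaled to the TMM-adjusted library total). Without naive replicate 1 or without naive replicate 3, edgeR called 0 of all genes in either direction, with 3919 and 4251 at an unadjusted p under 0.05. Without SOHU replicate 2, 2 ganglion cell markers and 1 glial marker passed.

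Of the 10 factors, 6 fell in SOHU libraries at an adjusted p under 0.05, against 5.93% of all tested genes. The 6 were Pou4f1, Pou4f3, Isl1, Isl2, Eomes and Ebf1. Once libraries were scaled to ganglion cell markers 0 fell, where 0.0113% of all tested genes did. The counts that follow are on the TMM scale. None was higher by edgeR's quasi-likelihood test, against 8.02% of all tested genes, and 0 were higher at an unadjusted p under 0.05, in DESeq2 or in limma-voom. In 8 of the 10, every SOHU library lay below every naive library, a pattern that 19.7% of tested genes showed, and in 0 did every SOHU library lie above (19.3% of tested genes). Over the 10 factors the median log2 fold change was -0.82, with a range of -1.33 to 0.38, beside a median of 0.014 over all tested genes. In bulk pull-down RNA of this kind, fewer ganglion cells, less factor RNA per ganglion cell and more RNA of other cells in the pull-down cannot be told apart. With SOHU replicate 3 left out, 8 of the 10 factors were lower at an adjusted p under 0.05, as were 1845 of 18070 tested genes. With SOHU replicate 1 left out there were 6 (892 of 18163 tested genes). Without naive replicate 2 there were 4 (264 of 18298 tested genes), with Isl1 and Eomes lost. Without SOHU replicate 2 there was 1 (46 of 18126 tested genes), Isl2 (adjusted p = 0.0461). Without naive replicate 1 or naive replicate 3 edgeR called 0, with 6 and 8 factors lower at an unadjusted p under 0.05. Without naive replicate 1, the log2 fold change of Isl2 was -1.17 (adjusted p = 0.0676), and without naive replicate 3 it was -1.39 (adjusted p = 0.063).

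**Figure D1:**
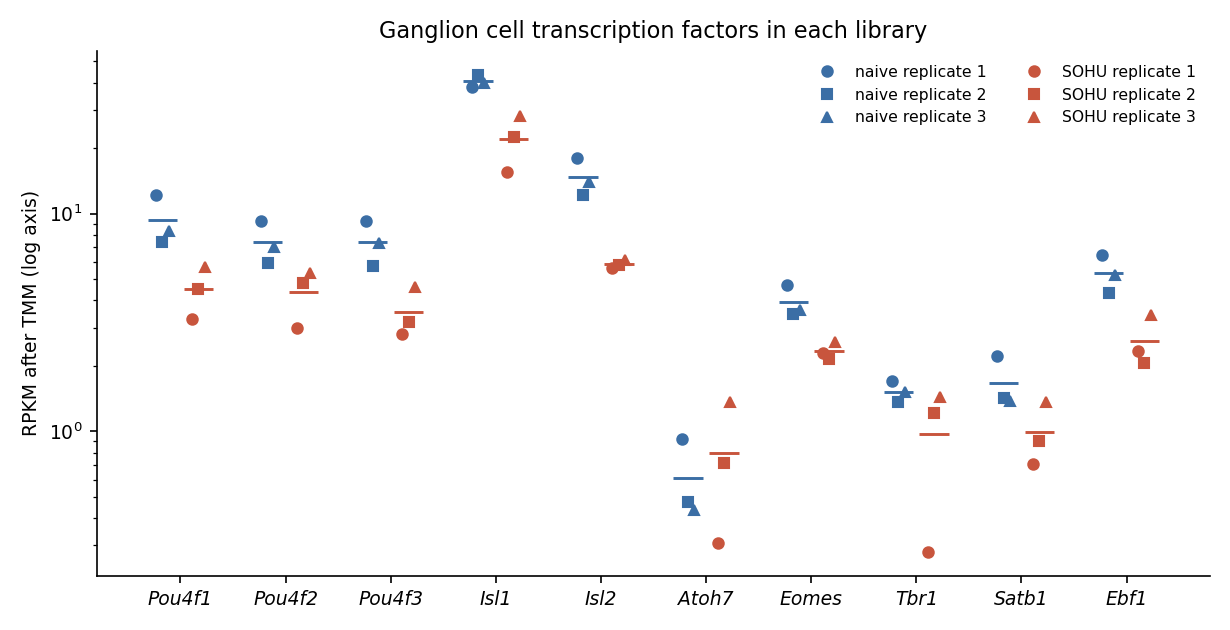
Level per length (RPKM after TMM scaling, log axis) of each of the 10 factors in each of the 6 libraries, blue for naive and red for SOHU, with a symbol per replicate and a short line at each group mean. All SOHU points lie below all naive points for 8 genes, while the groups overlap for Atoh7 and Tbr1.

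The POU4 genes encode closely related POU homeodomain activators that share binding sites and overlap in function. Pou4f1 (ENSMUSG00000048349.9, chr14:104461676-104467999, minus strand, mm10) stood at 56.9, 34.8 and 39.0 CPM in naive replicates 1, 2 and 3 and at 15.3, 21.1 and 26.7 CPM in SOHU replicates 1, 2 and 3. It fell 2.07-fold, from 43.6 ± 11.7 to 21.0 ± 5.69 CPM (SD, n = 3 each; log2 fold change -1.05, SE 0.24, edgeR adjusted p = 0.0243). The groups did not overlap, and naive replicate 1 stood well above the other naive libraries.

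Pou4f3 (ENSMUSG00000024497.4, chr18:42394539-42397249, plus strand), known also for its role in inner ear hair cells, had 22.1, 13.8 and 17.6 CPM in naive libraries and 6.69, 7.67 and 11.01 CPM in SOHU libraries. It fell 2.11-fold (log2 fold change -1.08, SE 0.25, edgeR adjusted p = 0.0244), again without overlap. Pou4f2 (ENSMUSG00000031688.4, chr8:78433010-78436645, minus strand), the POU4 gene that acts first in newborn ganglion cells, had 29.7, 19.1 and 22.6 CPM in naive libraries and 9.56, 15.5 and 17.2 CPM in SOHU libraries. Its groups did not overlap either, but its log2 fold change of -0.76 (SE 0.25, 95% interval -1.32 to -0.21) missed the threshold in edgeR (adjusted p = 0.0686). DESeq2 called it lower (adjusted p = 0.0225), as did edgeR without the filter on low counts (adjusted p = 0.00593). Naive replicate 1 was the highest naive library and SOHU replicate 1 the lowest SOHU library for all 3 POU4 genes.

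Isl1 and Isl2 are LIM homeodomain factors, the first shared with other retinal neurons and the second restricted to a portion of ganglion cells. Isl2 (ENSMUSG00000032318.12, chr9:55538672-55546180, plus strand) had 39.5, 26.7 and 30.6 CPM in naive libraries and 12.4, 12.7 and 13.4 CPM in SOHU libraries. The 3 SOHU values lay within 1 CPM of each other, a narrower spread than that of the naive libraries. Isl2 fell 2.52-fold, from 32.3 ± 6.57 to 12.8 ± 0.507 CPM (SD, n = 3 each; log2 fold change -1.33, SE 0.18, 95% interval -1.74 to -0.93, edgeR adjusted p = 0.00952). It had the smallest p and the largest fold change of the 10 factors, and stood at rank 48 of the 17687 tested genes by p.

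Isl1 (ENSMUSG00000042258.13, chr13:116298281-116309689, minus strand) had the highest level per length of the 10, and its counts came to 151.8, 172.2 and 156.8 CPM in naive libraries and 61.3, 88.7 and 111.0 CPM in SOHU libraries. The naive libraries were close together and the SOHU libraries spread apart, the reverse of Isl2. Isl1 fell 1.84-fold (log2 fold change -0.88, SE 0.20, edgeR adjusted p = 0.0227). Among markers of other cells that make Isl1, those of bipolar cells had a median log2 fold change of -0.52 (0.46 relative to ganglion cell markers). They made up 0.0480% to 0.0683% of naive counts and 0.0228% to 0.0577% of SOHU counts, with 0 of 6 past the edgeR threshold (2 at an unadjusted p under 0.05, 2 in DESeq2 and 0 in limma-voom). The starburst amacrine marker Chat, which makes acetylcholine, went from 16.7 ± 1.85 to 6.13 ± 4.14 CPM (SD, n = 3 each; edgeR adjusted p = 0.0522). The part of these cells in the Isl1 value was not tested.

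Promoters are shown for 4 of the genes that fell, to set the windows of genes that moved together beside each other. Each is the 250 bases before a RefSeq start (GRCm38.p6), and 9 of the 10 factors had an entry. The motifs were searched on both strands: the E-box CANNTG bound by basic helix-loop-helix factors such as Atoh7, the POU4 motif AATTAAT, and the LIM homeodomain motif CTAATG. Capitals mark matches to any of them, each sequence reads 5′ to 3′ on the strand of the gene, and no matches overlap in the windows shown. The windows are Pou4f1 at chr14:104468000-104468249 (minus strand), Isl1 at chr13:116309689-116309938 (minus strand), Isl2 at chr9:55540899-55541148 (plus strand, inside the span of the longer annotated gene) and Eomes at chr9:118477939-118478188 (plus strand).
Pou4f1: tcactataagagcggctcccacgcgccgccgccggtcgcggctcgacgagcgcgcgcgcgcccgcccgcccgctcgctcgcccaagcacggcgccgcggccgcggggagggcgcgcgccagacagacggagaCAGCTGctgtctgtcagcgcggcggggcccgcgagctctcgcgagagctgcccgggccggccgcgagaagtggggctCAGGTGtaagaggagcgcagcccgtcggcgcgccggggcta
Isl1: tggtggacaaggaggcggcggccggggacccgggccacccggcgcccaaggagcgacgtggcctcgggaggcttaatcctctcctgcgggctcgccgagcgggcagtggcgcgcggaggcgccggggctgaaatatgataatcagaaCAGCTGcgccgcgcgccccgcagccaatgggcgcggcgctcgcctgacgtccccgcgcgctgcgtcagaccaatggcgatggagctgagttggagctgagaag
Isl2: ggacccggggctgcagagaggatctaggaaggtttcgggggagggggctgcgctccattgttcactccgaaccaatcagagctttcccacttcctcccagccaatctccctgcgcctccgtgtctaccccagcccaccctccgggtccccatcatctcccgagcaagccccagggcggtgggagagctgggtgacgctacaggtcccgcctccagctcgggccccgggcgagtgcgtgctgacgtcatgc
Eomes: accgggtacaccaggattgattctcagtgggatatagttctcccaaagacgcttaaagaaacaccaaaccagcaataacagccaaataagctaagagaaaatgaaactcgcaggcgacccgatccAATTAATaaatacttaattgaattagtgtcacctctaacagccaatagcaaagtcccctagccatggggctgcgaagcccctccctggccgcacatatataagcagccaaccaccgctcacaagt
The Pou4f1 window held 2 E-boxes and the Isl1 window 1, while 66.2% of all 32851 RefSeq promoter windows of this length held at least 1. The Eomes window held 1 POU4 motif, as did that of Tbr1, against 2.46% of all windows. No motif was found in the Isl2 window, and the LIM homeodomain motif, present in 6.36% of all windows, was in none of the 14 windows of the 9 factors. Pou4f1, Isl1 and Isl2 windows were rich in G and C (78.0%, 71.2% and 66.8%, beside a median of 52.4% over all windows), and that of Eomes was not (46.4%). A match is a description of letters and does not show binding.

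Among the factors of particular ganglion cell types, Ebf1 and Eomes fell and Satb1 and Tbr1 did not pass the test. Ebf1 (ENSMUSG00000057098.14, chr11:44617317-45008091, plus strand), a helix-loop-helix factor with a zinc-binding domain, had 63.0, 42.2 and 51.1 CPM in naive libraries and 22.7, 20.1 and 33.5 CPM in SOHU libraries. It fell 2.05-fold (log2 fold change -1.03, SE 0.22, edgeR adjusted p = 0.0198), and the groups did not overlap. Eomes (ENSMUSG00000032446.14, chr9:118478212-118486132, plus strand), a T-box factor required by the melanopsin-expressing ganglion cells that sense light themselves, had 19.6, 14.4 and 14.9 CPM in naive libraries and 9.51, 8.92 and 10.7 CPM in SOHU libraries. It fell 1.67-fold (log2 fold change -0.74, SE 0.19, edgeR adjusted p = 0.0342), again without overlap. Eomes shares 118 exon bases with Gm33460 on the opposite strand, which had 3.14% of its level, and whether reads were counted by strand is not given in the sources used here.

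Satb1 (ENSMUSG00000023927.15, chr17:51736187-51833290, minus strand), a chromatin organiser found in direction-selective ganglion cells, had 42.1, 27.0 and 26.1 CPM in naive libraries and 13.5, 17.3 and 25.9 CPM in SOHU libraries. The groups were separated by less than 1 CPM, and its log2 fold change of -0.75 (SE 0.27) missed the threshold in edgeR (adjusted p = 0.0879) and passed it in DESeq2 (adjusted p = 0.0347). Tbr1 (ENSMUSG00000035033.15, chr2:61802930-61814114, plus strand), a T-box factor of OFF-type ganglion cells, had 9.32, 7.48 and 8.31 CPM in naive libraries and 1.54, 6.64 and 7.93 CPM in SOHU libraries. SOHU replicate 1 alone stood far below the others, and the highest SOHU value lay inside the naive range. The Tbr1 log2 fold change was -0.64 (SE 0.46, edgeR adjusted p = 0.377) and was -0.21 without SOHU replicate 1 (adjusted p = 0.537).

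Atoh7 (ENSMUSG00000036816.4, chr10:63099651-63101279, plus strand), which is switched off in mature retina, was near the floor of the data, with 39, 18 and 16 reads in naive libraries and 12, 26 and 55 in SOHU libraries. These correspond to 0.707 to 1.502 CPM and 0.499 to 2.24 CPM, and the range of the SOHU libraries held all 3 naive values. Its log2 fold change of 0.38 had a 95% interval of -0.89 to 1.65 (edgeR adjusted p = 0.689), which spans falls and rises. It was the only factor of the 10 with a higher mean in SOHU.

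**Figure D2:**
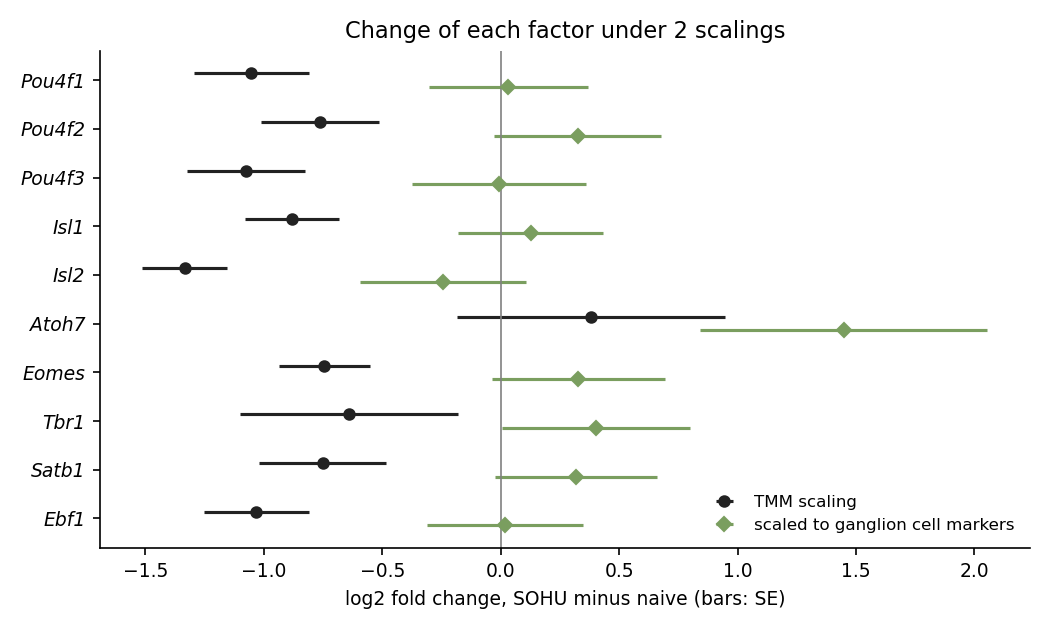
Log2 fold change of each of the 10 factors, SOHU minus naive, on the horizontal axis, with 1 SE, as scaled by TMM and as scaled to 14 ganglion cell markers. With TMM 9 of 10 values lie below 0, whereas with marker scaling 8 of 10 lie above 0 and only Atoh7 passes the threshold.

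To ask how the factors stood relative to other ganglion cell RNA, the libraries were rescaled to 14 ganglion cell markers that are not transcription factors, which moved the median log2 fold change of all tested genes to 1.06. On this scale 11847 of all tested genes (67.0%) were higher and 2 (0.0113%) lower. None of the 10 factors was lower (0 at an unadjusted p under 0.05), and 1, Atoh7, was higher (log2 fold change 1.45, SE 0.61, edgeR adjusted p = 0.0283), so its call is one that most genes share. The scale rests on the summed counts of the 14 markers, of which Nefl, Sncg and Tppp3 were the most abundant (naive means 1720, 1104 and 695 CPM). With TMM, the log2 fold changes of the single markers ran from -1.44 to -0.36. Pou4f1, Pou4f3 and Ebf1 were within 0.04 of the marker sum, at 0.03, -0.01 and 0.02. Isl1 stood at 0.13, Pou4f2 at 0.33, Eomes at 0.33, Satb1 at 0.32 and Tbr1 at 0.40, and Isl2 at -0.24 was the lowest, with SEs of 0.30 to 0.40 and none past the test.

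Per 1000 marker reads, Pou4f1 had 6.87 ± 0.145 reads in naive libraries and 7.02 ± 1.53 in SOHU libraries (SD, n = 3 each; exact two-sided permutation p = 1). Ebf1 had 8.29 ± 0.600 and 8.40 ± 0.884, and Isl2 had 5.14 ± 0.312 and 4.35 ± 0.613. Eomes had 2.61 ± 0.262 and 3.27 ± 0.245, the only factor whose groups did not overlap on this scale (exact two-sided permutation p = 0.1, the smallest that 3 against 3 allows). These ratios share their denominator across genes. With marker scaling edgeR called 67.0% of all tested genes higher, and the share of all genes without overlap on this scale was not counted.

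Within the POU4 family the share of per-length RNA was compared by library. Pou4f2 made up 30.2%, 31.1% and 31.0% of the RPKM (CPM per kilobase of exon) of the 3 genes in naive libraries and 33.0%, 38.5% and 34.2% in SOHU libraries, with no overlap. Pou4f1 went from 38.4 ± 1.54% to 36.2 ± 0.239%, also without overlap, and Pou4f3 from 30.8 ± 1.28% to 28.6 ± 2.75%, with overlap. For Pou4f1 and Pou4f2 the exact permutation p was 0.1, which 3 against 3 cannot go below. Isl1 made up 73.4 ± 5.08% of Isl1 plus Isl2 in naive libraries and 78.3 ± 4.54% in SOHU libraries (SD, n = 3 each; exact permutation p = 0.3). Over 16 ratios between factors of a class, 3 separated the groups without overlap, Pou4f2 over Isl2, Pou4f1 over Pou4f2 and Pou4f2 over Pou4f3, and none had an adjusted p under 0.533.

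Levels were ordered per length, in RPKM. In naive libraries Isl1 led at 40.5 ± 2.69 RPKM (SD, n = 3), then Isl2 at 14.7 ± 3.00, Pou4f1 at 9.33 ± 2.51, Pou4f2 at 7.44 ± 1.69, Pou4f3 at 7.43 ± 1.73, Ebf1 at 5.34 ± 1.07, Eomes at 3.92 ± 0.686, Satb1 at 1.67 ± 0.472, Tbr1 at 1.53 ± 0.168 and Atoh7 at 0.610 ± 0.271. Neighbours whose naive values did not overlap were Isl1 and Isl2, Isl2 and Pou4f1, Eomes and Satb1, and Tbr1 and Atoh7. For Isl2 and Pou4f1 this was nearly a tie, with a lowest Isl2 value of 12.187 and a highest Pou4f1 value of 12.180 RPKM. Neighbours overlapped from Pou4f1 down to Eomes, as did Satb1 and Tbr1. The order by mean was the same in SOHU libraries, where Isl1 still led at 22.0 ± 6.29 RPKM and the gaps that remained were those below Isl1 and below Eomes. Satb1's level per length rests on 19027 annotated exon bases, many of them in alternative exons.

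**Figure D3:**
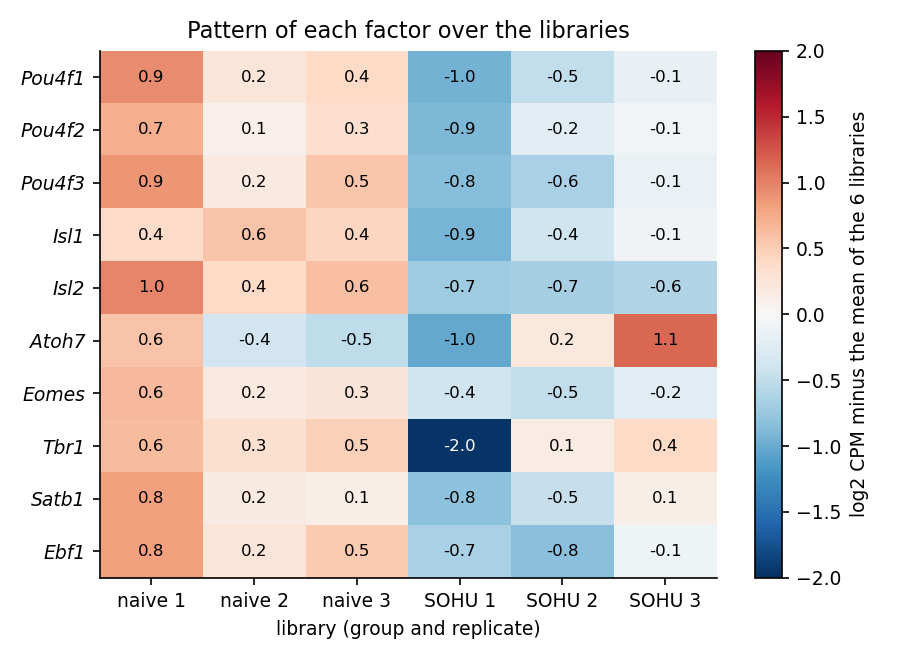
Heat map of the 10 factors (rows) in the 6 libraries (columns), as log2 CPM minus the mean of each gene over the 6 libraries. Naive replicate 1 is the highest naive library for 9 factors, and SOHU replicate 3 is the highest SOHU library for all 10.

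The libraries of a group differed in a like way across factors. Naive replicate 1 had the highest naive value for 9 of the 10, all but Isl1, and it also had the largest share of ganglion cell marker counts (0.80%). SOHU replicate 1 had the lowest SOHU value for 8, all but Eomes and Ebf1, and it had the largest share of glial marker counts (4.46%). Ganglion cell marker shares were 0.271%, 0.262% and 0.369% in SOHU replicates 1, 2 and 3, so the lowest was that of SOHU replicate 2. SOHU replicate 3 had the highest SOHU value for all 10, and the smallest glial share of the SOHU libraries (2.39%). The part of these shares in the factor values was not tested.

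Of 33 other transcription factors described in ganglion cells, 30 were tested, 7 fell and 0 rose, against 5.93% and 8.02% of all tested genes. Their median log2 fold change was -0.64 (0.41 relative to ganglion cell markers). In 14, all SOHU libraries lay below the naive ones, as in 19.7% of all tested genes. Those that fell included Irx2 (-1.29), Irx6 (-1.14), Ebf3 (-0.93), Irx4 (-0.91), Myt1l (-0.84) and Klf7 (-0.70), as log2 fold changes. They hold homeobox factors of the Iroquois family, a relative of Ebf1, a neuronal zinc finger repressor and a Krüppel-like factor of axon growth. Irx5 and Sox4, the latter known to act early in ganglion cell formation, had all SOHU libraries above all naive ones, at 0.63 (adjusted p = 0.0817) and 0.51 (adjusted p = 0.0902). Of all tested genes 19.3% had this pattern. The count of 7 was 3 with library size scaling alone, 13 in DESeq2, 3 without SOHU replicate 1, 3 without naive replicate 2, 14 without SOHU replicate 3 and 0 with naive replicate 1, naive replicate 3 or SOHU replicate 2 left out. Relative to the ganglion cell markers none of the 30 was lower and 5 were higher, where 0.0113% and 67.0% of all tested genes were.

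LIM cofactors link LIM homeodomain proteins such as Isl1 to each other and to chromatin. Of the 10 listed, which include Ldb1, Lmo4 and the Ssbp genes, edgeR called 0 in either direction (1 at an unadjusted p under 0.05, and 0 in DESeq2 and limma-voom), with a median log2 fold change of -0.02. The smallest p was that of Lmo1, which went from 76.3 ± 10.7 to 59.1 ± 4.11 CPM (adjusted p = 0.118). Relative to ganglion cell markers the median was 1.06 and all 10 were higher, as the median of all genes also was.

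Genes known as targets of Pou4f2 and Isl1 fell in 4 of 6 cases, against 5.93% of all tested genes. Their median log2 fold change was -0.85 (0.23 relative to ganglion cell markers). Shh, the secreted signal of ganglion cells, was at -1.40 (adjusted p = 0.0232), Nefl, the light neurofilament, at -1.23 (adjusted p = 0.0119), Stmn2, a tubulin-binding protein of axons, at -1.02 (adjusted p = 0.0154) and Gap43, a growth cone protein, at -0.68 (adjusted p = 0.0334). Ablim1, an actin-binding protein, was at -0.09 (adjusted p = 0.688). Nefl and Stmn2 are also among the markers used for rescaling. None of the 4 was called with naive replicate 1, naive replicate 3 or SOHU replicate 2 left out.

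Of 9 effector genes of ganglion cell types, 3 fell and 0 rose on the TMM scale, against 5.93% and 8.02% of all tested genes. Their median log2 fold change was -0.90 (0.14 relative to ganglion cell markers). Relative to those markers 0 were lower and 2 higher, where 0.0113% and 67.0% of all tested genes were. The 3 that fell were Mmp17 (-1.28, a membrane metalloproteinase), Adcyap1 (-1.12, the peptide PACAP of melanopsin cells) and Cartpt (-1.003, a peptide of ON-OFF direction-selective cells). On the TMM scale 7 of the 9 values lay below 0. Nmb (0.65, edgeR adjusted p = 0.301) and Jam2 (0.26, edgeR adjusted p = 0.51) lay above. All SOHU libraries were above all naive ones for Nmb, as in 19.3% of all tested genes. Opn4, melanopsin itself, was at -0.90 (adjusted p = 0.0839). Eomes, which these cells require, fell by 0.74 on the log2 scale. The Mmp17 values were 42.3 ± 0.903 CPM in naive libraries and 17.4 ± 9.81 CPM in SOHU libraries. The count of 3 was 5 in DESeq2 and with a replicate block, 1 without naive replicate 2, and 0 with SOHU replicate 2, naive replicate 1 or naive replicate 3 left out.

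**Figure D4:**
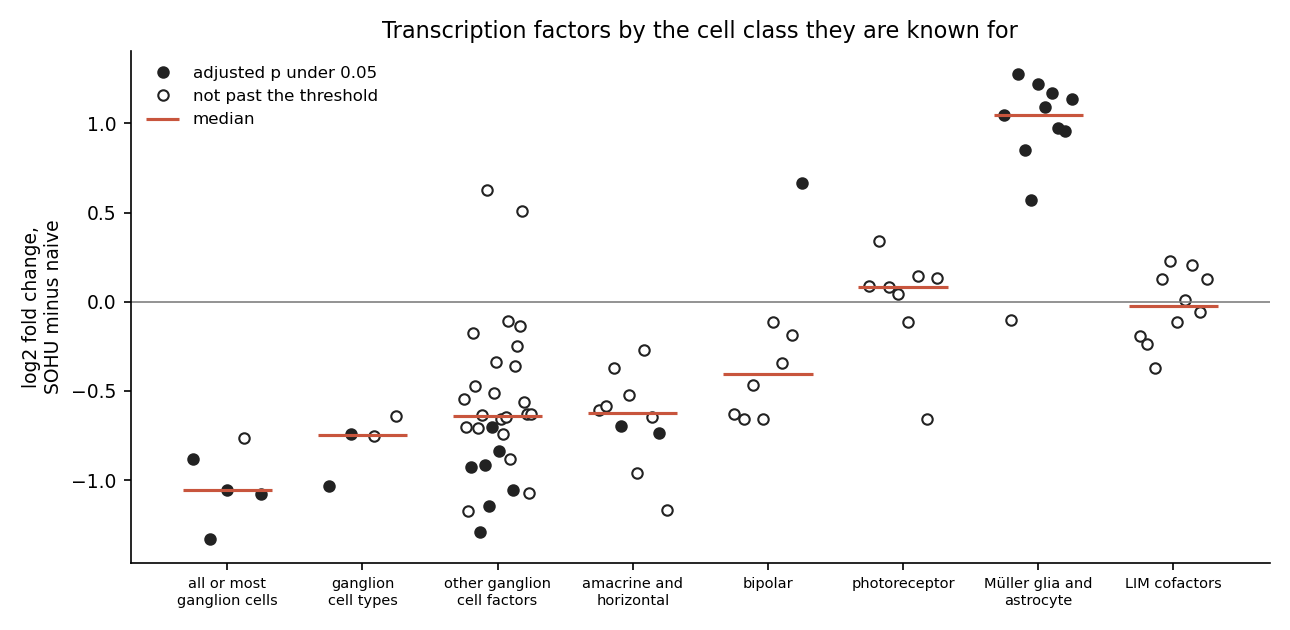
Log2 fold change, SOHU minus naive, of transcription factors grouped by the retinal cell class they are known for, one point per gene, filled where the adjusted p is under 0.05, with the median of each class as a line. On the TMM scale medians lie at -1.05 and -0.75 for the ganglion cell classes and at -0.64 for other ganglion cell factors. They lie at -0.63 for amacrine and horizontal, -0.40 for bipolar, 0.08 for photoreceptor and 1.05 for glial factors, and at -0.02 for LIM cofactors. Relative to ganglion cell markers the first 3 of these medians are 0.03, 0.32 and 0.41. On that scale amacrine and horizontal factors are at 0.36 and bipolar factors at 0.59.

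Factors of other retinal cells did not move alike. Those of Müller glia and astrocytes rose in 10 of 11 tested cases, against 8.02% of all tested genes, with a median of 1.05. Id3 was at 1.28, Nfib at 1.22, Rax at 1.17 and Sox9 at 1.14. Of 10 tested amacrine and horizontal cell factors 2 fell, Tfap2b (-0.74) and Meis2 (-0.69), against 5.93% of all tested genes. The median of the 10 was -0.63 (0.36 relative to ganglion cell markers), and the count ranged over the alternatives from 0 to 5. It was 0 with library size scaling alone or any 1 library but SOHU replicate 3 left out. DESeq2 and the fit without SOHU replicate 3 gave 5, and limma-voom gave 4. Of 8 bipolar cell factors edgeR called 0 lower (2 at an unadjusted p under 0.05, 2 in DESeq2 and 0 in limma-voom), with a median of -0.40 (0.59 relative to ganglion cell markers). Of 8 photoreceptor factors edgeR called 0 (2 at an unadjusted p under 0.05, 1 in DESeq2 and 0 in limma-voom), with a median of 0.08. Whether the classes differ from each other was not tested.

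Genes of retinal progenitors, some of which act before Atoh7 and many of which persist in Müller glia, rose in 7 of 11 cases. Of all tested genes 8.02% rose. The median of the 11 was 0.85. Rax was at 1.17, Neurog2 at 1.11, Hes1 at 1.05, Sox2 at 0.98 and Lhx2 at 0.85. Pax6, kept in ganglion and amacrine cells, was at -0.31 (adjusted p = 0.14). Of the 11, 5 are also in the list of glial factors, and the glial markers of the same libraries are given above. Without SOHU replicate 2, edgeR called 4 glial and 0 progenitor factors higher, without naive replicate 2 it called 5 and 3, and without SOHU replicate 1 it called 10 and 4. Without naive replicate 1 or naive replicate 3 it called 0 of either.

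Genes with the pattern most like that of Isl2 were sought by the Euclidean distance of centred log2 CPM over the 6 libraries, among 10928 genes whose log2 CPM averaged 3 or more. The nearest were Nefl (0.282), Nefh (0.296), Cplx1 (0.322), Vamp1 (0.342) and Calb2 (0.374). They encode 2 neurofilament subunits, a regulator of vesicle fusion, a vesicle protein and the calcium-binding protein calretinin. Of the other factors, Pou4f3 stood at rank 49, Ebf1 at 92, Pou4f1 at 109 and Eomes at 283, with Pou4f2 at 551, Isl1 at 600 and Satb1 at 689. Tbr1 (6570) and Atoh7 (9306) were far from Isl2. With a mean log2 CPM of 2.61 and 0.14 they lay under the cut of 3, so their ranks only place them beside the ranked genes. Isl2 itself was left out of the ranked genes, and the likeness describes these 6 libraries.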

How the data were processed

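RNA from anti-HA pull-downs of mouse retina was sequenced in 6 libraries. The submitters' processing notes name mm10 and the tools featureCounts, HISAT2, Trim Galore, MultiQC and bcl2fastq 2.17. Annotation and strand setting: not given in the sources used here. The authors deposited raw counts per gene, with exon lengths (per the file headers, in bases). Symbols were matched by gene ID to GENCODE M21 (55154 of 55335). CPM and RPKM were computed here from those counts. Groups were compared with edgeR 4.0.16 (quasi-likelihood, TMM factors 0.943 to 1.039, filterByExpr, robust fit) in R 4.3.3, adjusted by Benjamini-Hochberg over 17687 genes at 0.05, and tested on simulated data. Alternatives used DESeq2 1.42.0, limma-voom 3.58.1, other scalings and filters, a replicate block, and each library left out. The biological coefficient of variation was 22.3%. The 10 factors and the lists were chosen with earlier results of these data known. Of each other list, the genes past the threshold or up to 4 with the smallest p could be named; a few of these are not reported here.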

Additional observations from a re-analysis of the deposited data

How the results depend on the processing

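Of 140 values of the 10 factors under the alternatives, 103 kept their direction and their side of the threshold, 22 kept their direction and lost the threshold, 7 passed it and 8 turned direction. Scaling to ganglion cell markers gave 0 factors lower and 1 higher (2 and 11847 of 17687 genes). Log2 fold changes turned positive: Pou4f1 0.032, Pou4f2 0.33, Isl1 0.13, Eomes 0.33, Tbr1 0.40, Satb1 0.32 and Ebf1 0.019. By construction this scaling evens out the summed counts of those markers. With 1 library left out, the factors called lower ranged from 0 to 8 and those higher stayed at 0. Calls over all tested genes ranged from 0 to 1845 lower and from 0 to 2051 higher. The Atoh7 log2 fold change then ranged from -0.25 (without SOHU replicate 3) to 0.80; the cause was not tested. The count of lower factors was 6 with upper quartile scaling, with library size alone, with a 1 CPM filter and with limma-voom. Over all genes these settings called 1164 of 17687, 755 of 17687, 1123 of 15475 and 1197 of 17687 lower. The count was 8 in DESeq2 (1731 of 16656 genes lower) and without a filter (1675 of 31942). Replicate numbers are shared by the groups, and same-numbered libraries deviated together with correlations of 0.16, 0.25 and 0.004. Naive replicates 1 and 2 correlated best with the SOHU library of the same number, and naive replicate 3 with SOHU replicate 2 (0.095). These values do not settle whether the numbers are pairs, and the main fit did not take them as pairs. A fit with a replicate block called 5 factors lower (892 of 17687 genes), without Eomes (-0.73, adjusted p = 0.0538). Atoh7 had 12 to 55 reads a library, the lowest range of the 10, and the part of depth in its spread was not tested.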
